A study of Mus musculus with 6 samples.

Results

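The insulin and insulin-like growth factor (IGF) signalling genes described here are 10 of the 22298 genes in the deposited expression table. They are the ligand Igf2, the receptors Insr, Igf1r and Igf2r, the receptor substrates Irs1 and Irs2, the kinases Akt1 and Akt2, and the transcription factors Foxo1 and Foxo3. They were picked by symbol for their place in the pathway. All 10 were found, and all 10 were among the 12747 genes that passed the filter on low counts. RNA came from MIN6 cells, an insulin-secreting mouse insulinoma line derived from an animal that expressed the simian virus large T antigen under the insulin promoter. In the labels 3 samples are controls and 3 had chronic epinephrine, and no other genotype or agent was named. The study's methods give 100 nM epinephrine and cells between passages 32 and 40, and its scheme has 3 days with epinephrine followed by 2 days without it. The day of RNA collection for sequencing was not given in the sources used here, so it is unknown whether these cells had gone through withdrawal. MIN6 is 1 cell line, and the labels number the samples without saying that they were separate cultures. The study's statistics section says of its data in general that they come from biological replicates. The p-values set the group difference against the spread between these samples, which may not be the spread between separate cultures.

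Insulin and the IGFs bind receptor tyrosine kinases, which phosphorylate the insulin receptor substrates. These recruit phosphoinositide 3-kinase (PI3K), and the lipid it makes brings AKT to the membrane, where AKT is activated. AKT phosphorylates the FoxO transcription factors and keeps them out of the nucleus, and it acts on mTORC1, a kinase complex that promotes protein synthesis. In beta cells this chain is known for its part in beta-cell mass, and Irs2 is the substrate best known there. Epinephrine acts on beta cells mainly through the alpha-2A adrenergic receptor, which lowers cAMP and insulin release.

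Total expected counts were 15017065 to 18127171 per sample, so that 0 counts would allow a level of up to 0.166 to 0.200 CPM, the unit that scales counts to the library total. Control 1 stood apart from the other 5 samples. Its log2 CPM correlated with those of controls 2 and 3 at Pearson r = 0.978 across genes, against 0.993 between controls 2 and 3 and 0.992 to 0.993 among the epinephrine samples. In control 1 genes with long transcripts were higher. The median log2 ratio of control 1 to controls 2 and 3 was -0.30 over 2435 genes with transcripts under 2000 bases and 0.23 over 1963 genes with transcripts over 6000 bases. The longest annotated transcripts of the 10 genes ran from 2690 bases for Akt1 to 11409 bases for Igf1r, and 7 of the 10 were over 6000 bases. Because of this, results are given with all 6 samples, without control 1, and with a correction of each sample by an offset (the length and GC offset), which was fitted to the length and GC content of transcripts. This offset was chosen after seeing the data, and so was the choice to single out the fit without control 1. The 12 beta-cell markers were all detected, with a summed level of 52380 to 67820 CPM in controls and 60960 to 62460 CPM after epinephrine, and 4 of 7 exocrine pancreas markers were at 0 in every sample. Controls 2 and 3 also held RNA of hepatocyte genes. The summed level of 17 such genes was 18.3 to 225 CPM in controls and 15.3 to 18.3 CPM after epinephrine. The summed level of 6 markers of other islet cells was 181 to 212 CPM in controls and 376 to 407 CPM after epinephrine, and that of 7 leukocyte markers was 0.516 to 1.73 CPM and 2.32 to 3.83 CPM. For 7 fibroblast markers it was 1.66 to 23.4 CPM in controls and 1.77 to 19.4 CPM after epinephrine. The part of these genes in the results below was not tested.

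Promoter sequences are shown for the genes with the largest differences, Igf1r, Irs2 and Foxo1, and for the others that share with Irs2 the E-box CACGTG, a core recognised by basic helix-loop-helix factors. RefSeq start sites on GRCm38.p6 were found for 9 of the 10 genes, with 16 windows in all, each of 250 bases before and 50 bases after a start. Insr had no entry. Each line gives the 130 bases before the start, 5′ to 3′ on the gene's own strand, with CACGTG in capitals.
Irs2, chr8:11008930-11009059, minus strand: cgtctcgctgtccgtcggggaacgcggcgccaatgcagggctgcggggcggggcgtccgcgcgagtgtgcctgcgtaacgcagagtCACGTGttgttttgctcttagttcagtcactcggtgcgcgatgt
Irs1, chr1:82291440-82291569, minus strand: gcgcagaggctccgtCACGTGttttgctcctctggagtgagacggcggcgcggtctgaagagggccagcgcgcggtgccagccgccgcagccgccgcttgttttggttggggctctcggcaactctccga
Igf2r, chr17:12769707-12769836, minus strand: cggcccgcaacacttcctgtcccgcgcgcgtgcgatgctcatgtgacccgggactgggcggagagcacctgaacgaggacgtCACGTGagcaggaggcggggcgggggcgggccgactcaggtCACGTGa
Igf1r, chr7:67952127-67952256, plus strand: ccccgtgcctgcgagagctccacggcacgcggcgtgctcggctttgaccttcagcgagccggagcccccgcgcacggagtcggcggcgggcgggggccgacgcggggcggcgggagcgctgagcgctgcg
Foxo1, chr3:52268207-52268336, plus strand: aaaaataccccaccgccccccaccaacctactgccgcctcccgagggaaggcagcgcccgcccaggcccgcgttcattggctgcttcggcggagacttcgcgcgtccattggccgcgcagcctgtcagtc

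In all, 5 motifs were searched on both strands of the 300-base windows. CACGTG began 44 bases before the Irs2 start, 115 before that of Irs1, and 48 and 7 before that of Igf2r. It was in windows of 3 of the 9 genes, or 3 of their 16 windows, and 7.15% of all 32851 promoters held it. TGACG, the short site of the cAMP response element, was in windows of 5 of the 9 genes (Irs1, Igf2, Igf2r, Akt2 and Foxo3), or 7 of the 16 windows, and in 20.8% of all promoters. Igf2 and Akt2 have 4 windows each, so that a gene with several starts has more chances of a match than a single promoter. In Irs1 and Igf2r it overlapped CACGTG. The full element TGACGTCA, which holds TGACG, was in none of the 9 genes and in 1.79% of all promoters. The forkhead motif TGTTTAC was found for Akt1 alone, 161 bases before a start, and in 3.65% of all promoters. The element TGATGNAAT, bound by C/EBP-ATF dimers, was found for Akt2 alone and in 0.965% of all promoters. Within these windows Igf1r and Foxo1 had no match to any of the motifs. These matches are descriptions of sequence and carry no measurement of binding.

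Levels of different genes were set side by side in FPKM, the authors' values scaled to transcript length and sample total. The order in controls was Igf2, then Akt1, Akt2, Igf2r, Foxo3, Irs2, Insr, Foxo1, Igf1r and Irs1. Igf2 stood far above the rest, at 3105 ± 422 FPKM (SD, n = 3) in controls and 2365 ± 94.0 after epinephrine. It ranked 17th of all genes by mean FPKM and took 0.852% to 1.32% of all counts in a sample. Akt1 followed at 56.2 ± 2.00 and Akt2 at 44.7 ± 2.71 FPKM in controls, and these neighbours did not overlap in any control. Igf2r (23.1 ± 13.3), Foxo3 (18.1 ± 4.19), Irs2 (11.7 ± 2.80), Insr (11.4 ± 4.17) and Foxo1 (9.63 ± 3.04) lay within the spread of their neighbours in that order. Igf1r (4.54 ± 1.87) and Irs1 (3.64 ± 0.459) were the lowest of the 10 and also overlapped. After epinephrine Irs2 stood above Insr in every sample, at 15.1 ± 0.472 against 9.32 ± 0.0493 FPKM, as it already did in controls 2 and 3 but not in control 1. After epinephrine Igf1r, at 7.03 ± 0.482, stood above both Foxo1, at 6.28 ± 0.0322, and Irs1, at 3.32 ± 0.311.

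**Figure D1:**
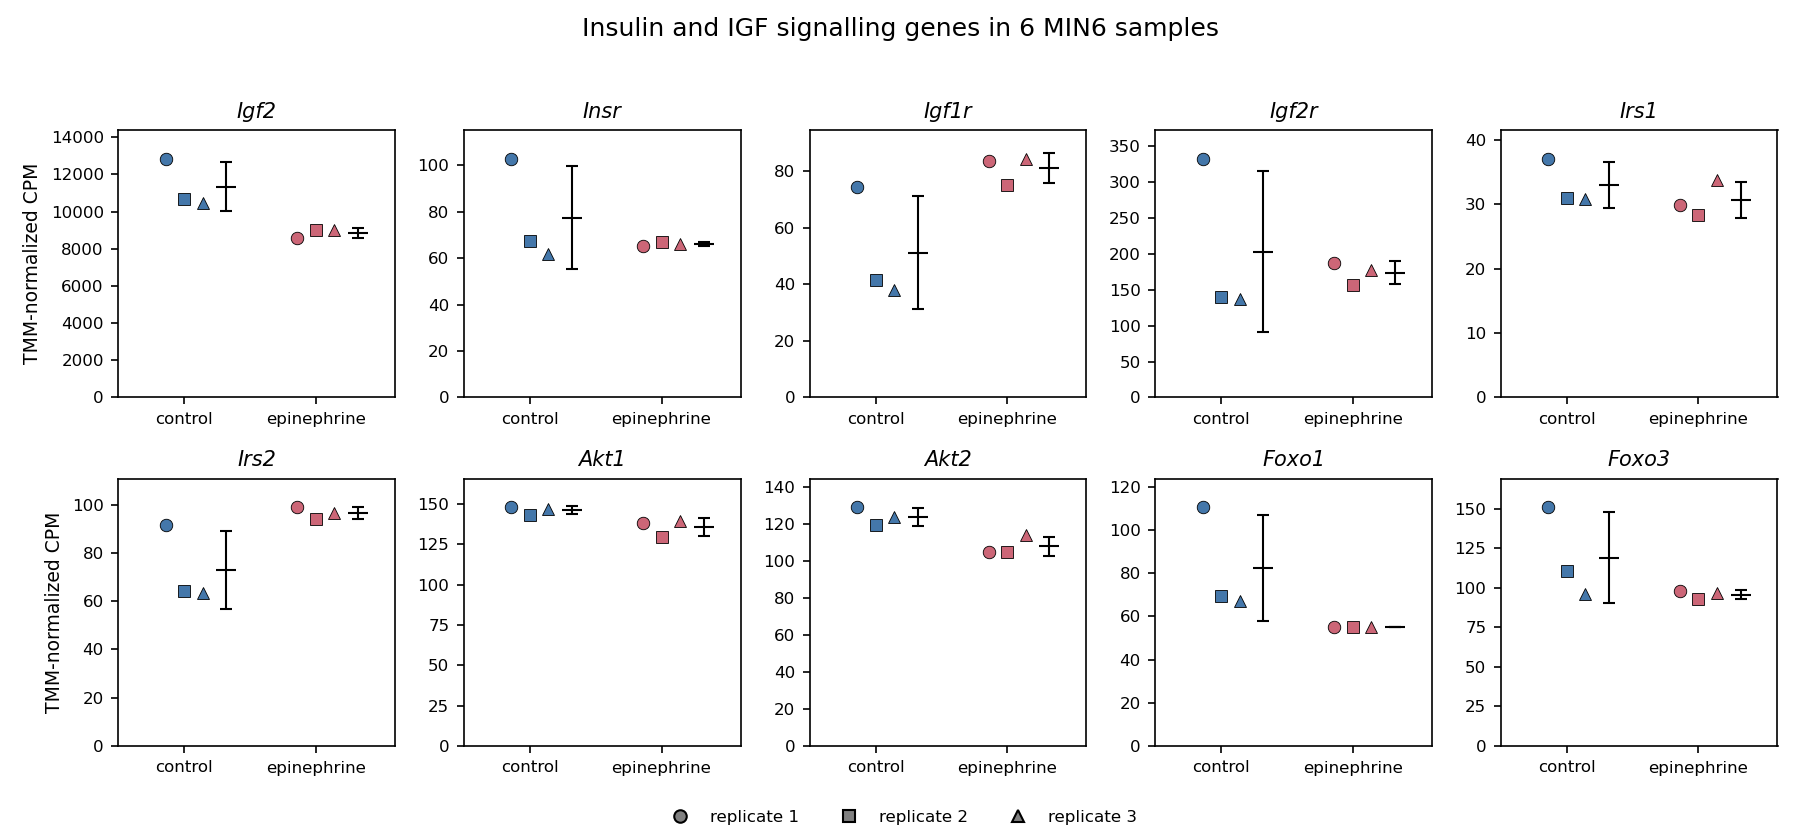
Level of each of the 10 genes in every sample, in TMM-normalized CPM on linear axes from 0. Points are samples with a shape per replicate number, and the bars give the mean and SD of 3 samples. Igf1r and Irs2 were higher in all 3 epinephrine samples than in any control, and Igf2, Akt1, Akt2 and Foxo1 were lower, while control 1 was the highest control for all 10 genes.

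The study's comparison asked how chronic epinephrine affects gene expression in beta cells, and it is given here for the RNA of this chain. Igf1r and Irs2 had higher means after epinephrine, at 1.59-fold and 1.32-fold, and the other 8 genes had lower means, from 0.667-fold for Foxo1 to 0.93-fold for Irs1. By edgeR's quasi-likelihood test, 0 of the 10 passed a false discovery rate (FDR) of 0.05 over all genes tested, a threshold that 2.63% of those genes passed. At an unadjusted p under 0.05 there were 5 of 10 (Igf1r, Irs2, Igf2, Akt2 and Foxo1) against 17.1% of all genes. In 6 of 10 the groups did not overlap, with Igf1r and Irs2 higher and Igf2, Akt1, Akt2 and Foxo1 lower, against 27.3% of all genes. The Wald test of DESeq2 called 1 of the 10, Igf2, and 5.07% of all genes. Without control 1 edgeR called 6 of 10 (Igf1r, Irs2 and Igf2r higher, Igf2, Akt2 and Foxo1 lower), when 21.6% of all genes were called. With the length and GC offset it called 4 of 10 (Igf1r, Irs2, Igf2 and Foxo1), when 10.4% of all genes were called. Values below are TMM-normalized CPM unless stated otherwise. In these bulk samples fewer cells of a type and less RNA per cell cannot be told apart.

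Among the ligands, Igf2 encodes IGF2, which acts through the type 1 IGF receptor and the insulin receptor. The gene lies at chr7:142650766-142666816 on the minus strand of GRCm38. Its level was 12840, 10682 and 10451 CPM in controls 1 to 3, and 8564, 9016 and 9003 CPM after epinephrine. Every epinephrine sample lay below every control. The log2 fold change was -0.35 ± 0.105 (SE, 95% interval -0.59 to -0.11), with an edgeR p of 0.00892 and an FDR of 0.131. Igf2 had the smallest p of the 10 genes and kept its direction in all 16 alternatives. Without control 1 it was -0.25 (FDR 0.000114), with the offset -0.28 (FDR 0.0195), and with DESeq2 -0.36 (FDR 0.0273). Of the 50-base windows of its transcripts, 62.1% also occur in Gm49394, a transcript that overlaps it on the same strand, or in the antisense gene Igf2os, so that reads of these could be split. Counts of Gm49394 came to 2.93% to 3.41% of those of Igf2. The 5 genes whose log2 CPM followed that of Igf2 most closely over the 6 samples, out of 7712 with a mean of at least 20 CPM, were Ralgds, Tshz1, Xk, Zfp704 and Bpnt1, with Pearson r of 0.996 to 0.999. Since these 6 samples share the group difference and control 1, this is a description only.

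The 3 receptors lay differently between the groups. Igf1r, the type 1 IGF receptor, lies at chr7:67952827-68233668 on the plus strand. It was measured at 74.2, 41.3 and 37.9 CPM in controls 1 to 3, and at 83.6, 75.0 and 84.3 CPM after epinephrine. All epinephrine samples were above all controls, although control 1 came close to the lowest of them. The log2 fold change was 0.66 ± 0.229 (interval 0.14 to 1.19, edgeR FDR 0.188), the largest positive value among the 10. It was 1.03 without control 1 (FDR 8.26e-12) and 0.79 with the offset (FDR 0.00367). No 50-base window of Igf1r was shared with another gene.

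Insr, the insulin receptor, lies at chr8:3122061-3279617 on the minus strand. It was at 103, 67.4 and 61.9 CPM in controls and at 65.1, 66.7 and 66.2 CPM after epinephrine. The epinephrine values fell between those of controls 2 and 3, and only control 1 lay well above them. Its log2 fold change was -0.23 ± 0.175 (interval -0.63 to 0.17, edgeR FDR 0.555), and without control 1 it was 0.029 (FDR 0.791), so that even its direction rested on that sample.

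Igf2r encodes the type 2 IGF receptor, which takes IGF2 to the lysosome and is also the mannose 6-phosphate receptor. It lies at chr17:12682406-12769664 on the minus strand. Its level was 332, 139 and 137 CPM in controls and 187, 157 and 177 CPM after epinephrine. Control 1 lay above every other sample and controls 2 and 3 below every epinephrine sample. This was the widest spread within a group among the 10 genes, with control 1 at a log2 ratio of 1.27 to the mean of the other controls. The log2 fold change was -0.22 ± 0.314 (interval -0.94 to 0.50, edgeR FDR 0.764). Without control 1 it turned to 0.33 (FDR 0.000206), while with the offset it was -0.06 (FDR 0.877) and did not pass.

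Both receptor substrates are docking proteins that carry the receptor signal to PI3K. Irs2, at chr8:10984681-11008458 on the minus strand, was measured at 91.7, 64.2 and 63.3 CPM in controls and at 99.0, 94.0 and 96.7 CPM after epinephrine. As for Igf1r, all epinephrine samples were above all controls and control 1 was the nearest to them. This gave a log2 fold change of 0.40 ± 0.143 (interval 0.08 to 0.73, edgeR FDR 0.198), and it was 0.60 without control 1 (FDR 9.05e-09) and 0.52 with the offset (FDR 0.00046). Irs2 shares 1.80% of its 50-base windows with 9530052E02Rik, which overlaps it on the other strand.

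Irs1, at chr1:82233101-82291416 on the minus strand, was at 37.1, 31.0 and 30.8 CPM in controls and at 29.9, 28.3 and 33.8 CPM after epinephrine. The groups overlapped. Its log2 fold change was -0.11 ± 0.113 (interval -0.36 to 0.15, edgeR FDR 0.686), and it came to -0.02 without control 1 and did not pass under any of the 16 alternatives. Gm9747 overlaps Irs1 on the other strand and shares 30.5% of its 50-base windows, with counts of 10.5% to 26.3% of those of Irs1. Whether counting used the strand was not given in the sources used here, so reads of this pair cannot be told apart. Irs1, Irs2 and Igf2r all hold the CACGTG shown in their promoter sequences, and edgeR called none of them with all 6 samples. Without control 1 it called Irs2 and Igf2r but not Irs1, and with the offset Irs2 alone. Any part of the motif in these levels was not tested.

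The kinases AKT1 and AKT2 relay the signal of PI3K, and AKT2 is the form best known in glucose metabolism. Both differed little between groups, and their controls were close to each other, with control 1 at a log2 ratio of 0.03 for Akt1 and 0.09 for Akt2 to the mean of the others. Akt1 (chr12:112653821-112674884, minus strand) was at 148, 143 and 147 CPM in controls and at 138, 129.6 and 139.7 CPM after epinephrine. Akt2 (chr7:27591552-27640826, plus strand) was at 129, 119 and 124 CPM in controls and at 105, 105 and 114 CPM after epinephrine. For both genes every epinephrine sample was below every control, but with the length and GC offset the groups overlapped for both, since control 1 then lay among the epinephrine samples. The log2 fold change of Akt1 was -0.11 ± 0.0778 (interval -0.28 to 0.07, edgeR FDR 0.533), or -0.10 with the offset, and it did not pass under any alternative. That of Akt2 was -0.20 ± 0.0818 (interval -0.39 to -0.01, edgeR p 0.0388, FDR 0.261), and it passed only without control 1, at -0.17 (FDR 0.0291), while with the offset it was -0.14 (FDR 0.297). A processed copy of Akt2, Akt2-ps, shares 9.76% of its 50-base windows.

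The FoxO factors are the transcription factors that AKT restrains. Foxo1, which in beta cells is known for its links to Pdx1 and the stress response, lies at chr3:52268336-52353221 on the plus strand. It was measured at 111, 69.4 and 67.2 CPM in controls and at 54.9 CPM in each of the 3 epinephrine samples. All epinephrine samples lay below all controls. The log2 fold change was -0.58 ± 0.18 (interval -0.997 to -0.17, edgeR p 0.0111, FDR 0.148), the largest decrease among the 10. It was -0.31 without control 1 (FDR 0.000275) and -0.49 with the offset (FDR 0.0125). Of the 50-base windows of Foxo1, 6.80% also occur in other genes, among them Gm20402, which overlaps it on the other strand. Foxo3, at chr10:42181841-42276755 on the minus strand, was at 151, 111 and 96.0 CPM in controls and at 97.9, 92.8 and 96.7 CPM after epinephrine. Control 3 lay within the epinephrine values, but with the offset all epinephrine samples lay below all controls, at a log2 fold change of -0.21 (edgeR FDR 0.0919). Its log2 fold change was -0.32 ± 0.154 (interval -0.67 to 0.04, edgeR FDR 0.344), and -0.11 without control 1, and it did not pass under any alternative.

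Exact two-sided permutation tests of single genes cannot go below p = 0.1 with 3 samples against 3. Igf1r, Irs2, Igf2, Akt1, Akt2 and Foxo1 were at that floor. For Foxo3 the exact permutation p was 0.3, for Irs1 0.5, for Insr 0.7 and for Igf2r 1.

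**Figure D2:**
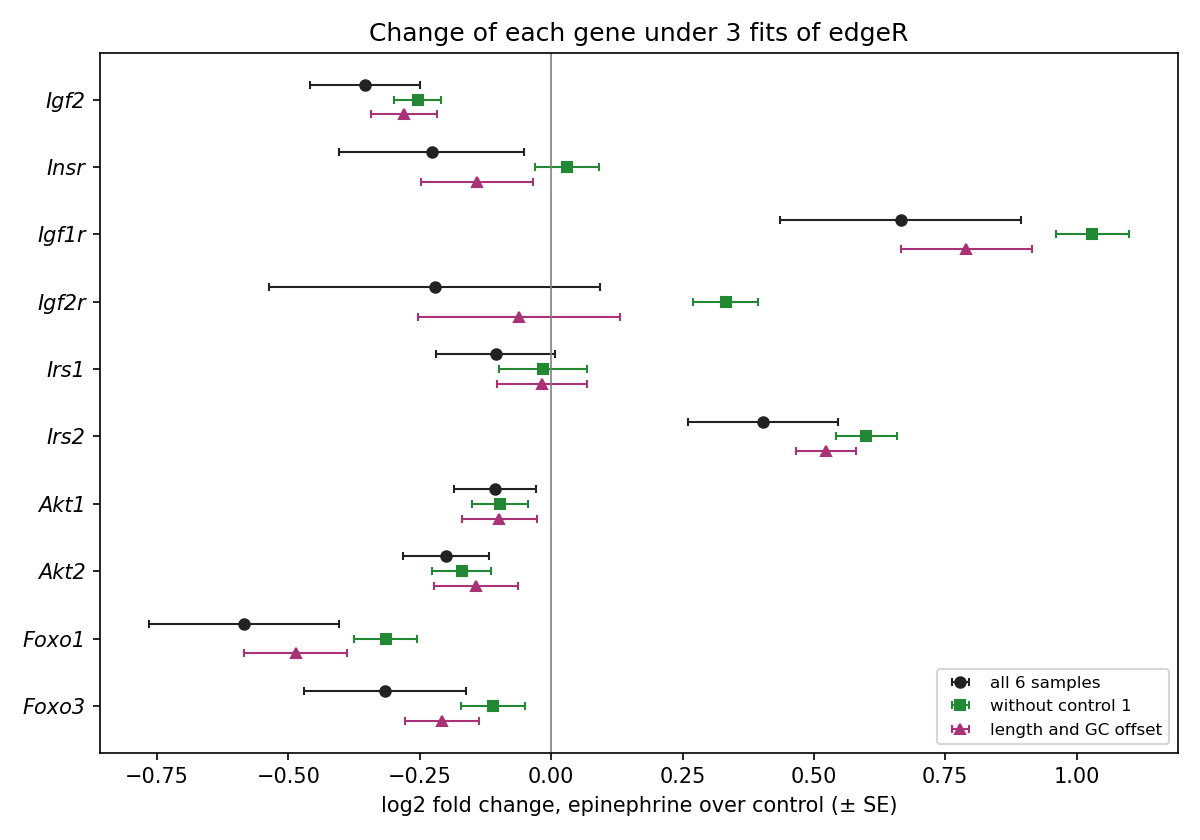
Log2 fold change of each of the 10 genes (epinephrine over control, ± SE) by edgeR with all 6 samples, without control 1, and with the length and GC offset. Igf1r and Irs2 were above 0 and Igf2, Akt1, Akt2, Foxo1 and Foxo3 below 0 in all 3 fits, while Insr and Igf2r crossed 0 without control 1.

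Ratios of 2 related genes within the same sample take out what scales both alike, so they were formed from FPKM for each receptor, substrate, kinase and FoxO pair. The balance of Insr to Igf1r differed most. Insr was 2.42, 2.42 and 2.77 times Igf1r in controls 1 to 3, and 1.27, 1.45 and 1.28 times after epinephrine. In this ratio control 1 stood with the other controls, and the groups were far apart. The mean log2 ratio was 1.34 ± 0.114 (SD, n = 3) in controls and 0.41 ± 0.106 after epinephrine, a difference of -0.93, or -0.79 with 1 added to each FPKM value. Irs1 was 0.280, 0.333 and 0.337 times Irs2 in controls and 0.209, 0.209 and 0.241 times after epinephrine, a difference of -0.53 in the mean log2 ratio. Here too no epinephrine sample reached a control. The ratio of Akt1 to Akt2 differed by 0.10, from 0.33 ± 0.0459 to 0.43 ± 0.0347 on the log2 scale, and control 3 lay just below the lowest epinephrine sample. The ratio of Foxo1 to Foxo3 differed by -0.28, from -0.93 ± 0.144 to -1.22 ± 0.0808 on the log2 scale, with control 2 just above the highest epinephrine sample. For the kinase and FoxO pairs the groups were thus only narrowly apart. The exact two-sided permutation p of each ratio was 0.1, the smallest that this design allows, and since no other gene pairs were measured this way, the ratios are a description.

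**Figure D3:**
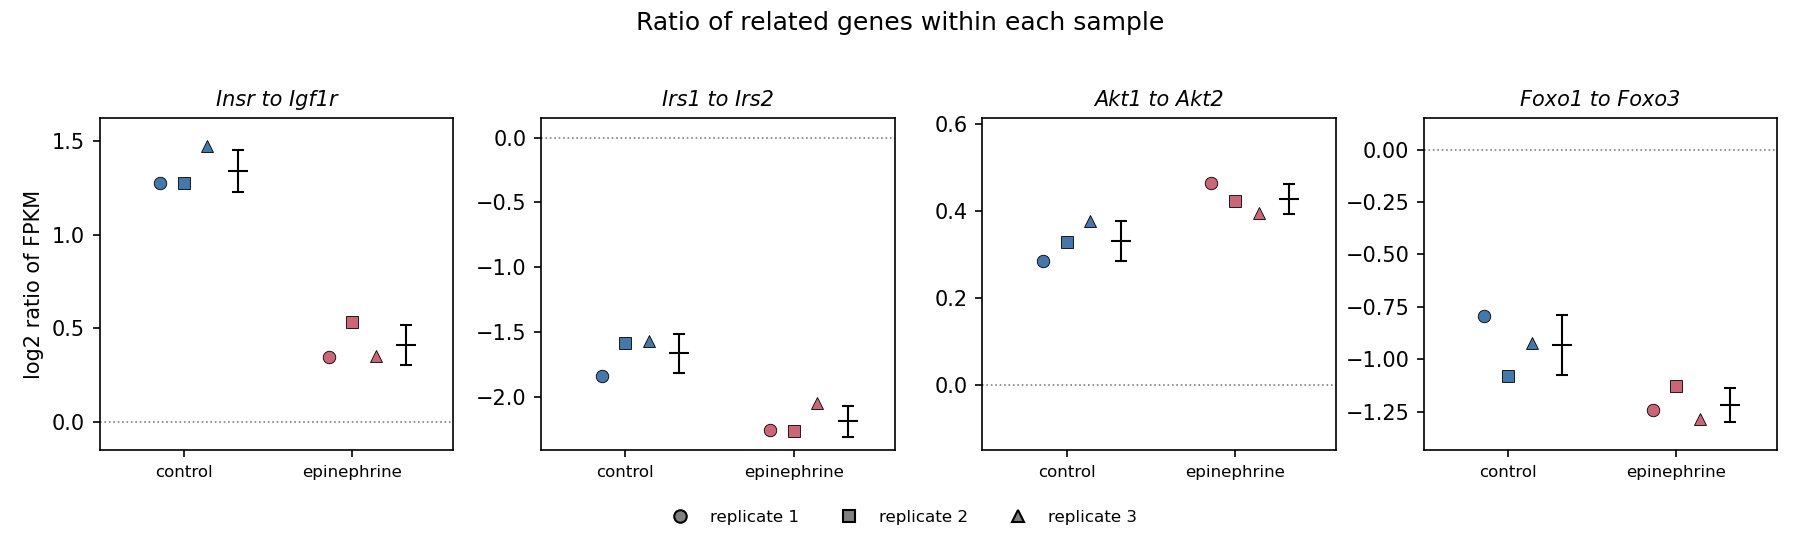
Log2 ratio of the FPKM values of 2 related genes within each sample, with the mean and SD of 3 samples per group and a dotted line at 0, where both genes have the same level. Insr exceeded Igf1r in all 6 samples, by 2.42 to 2.77 times in controls and by 1.27 to 1.45 times after epinephrine.

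Around these 10 genes, 108 other genes of the pathway were listed by role, and 87 passed the filter on low counts. Of these 4 were upregulated (Fam129a, Trib3, Eif4ebp1 and Inpp4b) and 2 downregulated (Ins1 and Sesn1) at an FDR under 0.05 by edgeR. Over all genes tested 2.02% were upregulated and 0.612% downregulated. The fold change was positive in 28 of the 87 and negative in 59, with a median log2 fold change of -0.08, against 6311 positive and 6436 negative and a median of -0.0023 over all genes tested. Without control 1 the signs were 37 positive and 52 negative with a median of -0.029, against 6528 and 6438 with a median of 0.0014 over all genes in that fit. With the offset they were 34 and 53 with a median of -0.043, against 5911 and 6831 with a median of -0.016 over all genes. The groups did not overlap in 38 of the 87, 13 of them higher and 25 lower after epinephrine, against 14.3% of all genes higher and 13% lower.

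Of the other ligands and binding proteins 7 of 14 were tested, and 1, Ins1, was downregulated. Ins1 is the second insulin gene of the mouse. It was at 2815, 2887 and 2932 CPM in controls and 1983, 2091 and 2046 CPM after epinephrine, with a log2 fold change of -0.50 ± 0.0789 (edgeR FDR 0.0152). It passed in 8 of the 16 alternatives. Ins2 was at 24524 to 37104 CPM in controls and 31279 to 33051 CPM after epinephrine (log2 fold change 0.013, FDR 0.974). Without control 1 Ins2 was called lower, at -0.15 (edgeR FDR 0.0205), and with the offset it was -0.12 (FDR 0.306). Since the 2 genes are close copies, reads may have been split between them. Igf1, the other IGF, had 5, 6 and 4 counts in controls and 0 in all 3 epinephrine samples, and was too low to test. Igfbp1, an IGF-binding protein made in liver, had 0, 7 and 11 counts in controls and 0 in all 3 epinephrine samples. The hepatocyte gene Alb had 3, 593 and 1315 counts in the same controls and 5 to 8 after epinephrine, and its part in these counts was not tested.

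Of the receptor-proximal adaptors 11 of 15 were tested and none passed edgeR's FDR threshold. At an unadjusted p under 0.05 there was 1, against 17.1% of all genes, and DESeq2 called 1 of 12, against 5.07%. That 1 gene at an unadjusted p was Insrr, the insulin receptor-related receptor, at 100.5, 73.1 and 69.2 CPM in controls and 54.7, 51.1 and 50.05 CPM after epinephrine (log2 fold change -0.64 ± 0.142, edgeR FDR 0.0588). It passed in 5 of the 16 alternatives, including that without control 1, at -0.45. Irs4 was at 0 counts in every sample.

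Among 14 tested genes listed as brakes on receptors and AKT, Fam129a and Trib3 were upregulated, and only Trib3 is known as such a brake. Fam129a, also called Niban, is known from the stress of the endoplasmic reticulum. It was at 8.87, 8.97 and 10.3 CPM in controls and 34.6, 31.3 and 31.8 CPM after epinephrine (log2 fold change 1.80 ± 0.107, edgeR FDR 0.000272). Trib3 encodes a pseudokinase that has been described to bind AKT and that is also induced by ATF4 and CHOP. It was at 19.9, 17.7 and 15.6 CPM in controls and 49.2, 47.4 and 43.3 CPM after epinephrine (log2 fold change 1.40 ± 0.112, edgeR FDR 0.00123). In both genes the groups were far apart, and control 1 lay close to controls 2 and 3.

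The PI3K subunits and lipid phosphatases had 11 tested genes, 1 of them upregulated. This was Inpp4b, a phosphatase that removes a phosphate from a PI3K product, at 25.6, 28.2 and 25.3 CPM in controls and 33.3, 37.2 and 38.3 CPM after epinephrine (log2 fold change 0.46 ± 0.097, edgeR FDR 0.0479). It lay at the threshold and passed in 4 of the 16 alternatives. Of kinases related to AKT, mTOR complexes and AKT phosphatases 14 were tested and none passed edgeR's threshold. At an unadjusted p under 0.05 there were 3, against 17.1% of all genes, and DESeq2 called 1, against 5.07%. Without control 1 edgeR called 1 higher and 2 lower, when 21.6% of all genes were called. With the offset it called 1 lower, when 4.92% of all genes were downregulated.

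Of 19 tested AKT and mTORC1 substrates and regulators, 1 was upregulated and 1 downregulated. Eif4ebp1 encodes 4E-BP1, a translational repressor that mTORC1 phosphorylates and that ATF4 also induces. It was at 8.998, 8.80 and 13.0 CPM in controls and 32.025, 30.4 and 32.1 CPM after epinephrine (log2 fold change 1.62 ± 0.154, edgeR FDR 0.00199). Sesn1 encodes a sestrin, an inhibitor of mTORC1, and was at 59.0, 66.5 and 62.8 CPM in controls and 44.5, 48.3 and 41.1 CPM after epinephrine (log2 fold change -0.49 ± 0.0944, edgeR FDR 0.0344). Fam129a, Trib3 and Eif4ebp1 passed in all 16 alternatives, and Sesn1 in 10.

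FoxO targets had 14 tested genes, and with all 6 samples none passed edgeR's FDR threshold, 7 at an unadjusted p under 0.05 (17.1% of all genes) and 4 of 18 lower by DESeq2 (1.98% of all genes). Their median log2 fold change was -0.21, against -0.0023 over all genes tested. In 7 of the 14 the groups did not overlap with epinephrine lower (13% of all genes), and in 1 with epinephrine higher (14.3%). The smallest p was that of Bcl2l11, which encodes the cell death protein BIM, at 69.8, 59.9 and 53.2 CPM in controls and 44.5, 45.1 and 44.4 CPM after epinephrine (log2 fold change -0.45 ± 0.109, edgeR FDR 0.0785). With the offset 7 of the 14 were downregulated and none upregulated, when 4.92% of all genes were downregulated. Without control 1 these numbers were 8 and 0 of 15, when 9.46% of all genes were downregulated. Among these 8, Pck1 was too low to test with all 6 samples, with 0, 14 and 29 counts in controls and 0, 0 and 2 after epinephrine, and like the hepatocyte genes it was higher in controls 2 and 3, the controls that this fit keeps. The other 7 were the same genes as with the offset. This list holds genes known as targets of FoxO factors, and its genes also answer to other factors. Whether FoxO factors raise or lower each of them in these cells was not tested.

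**Figure D4:**
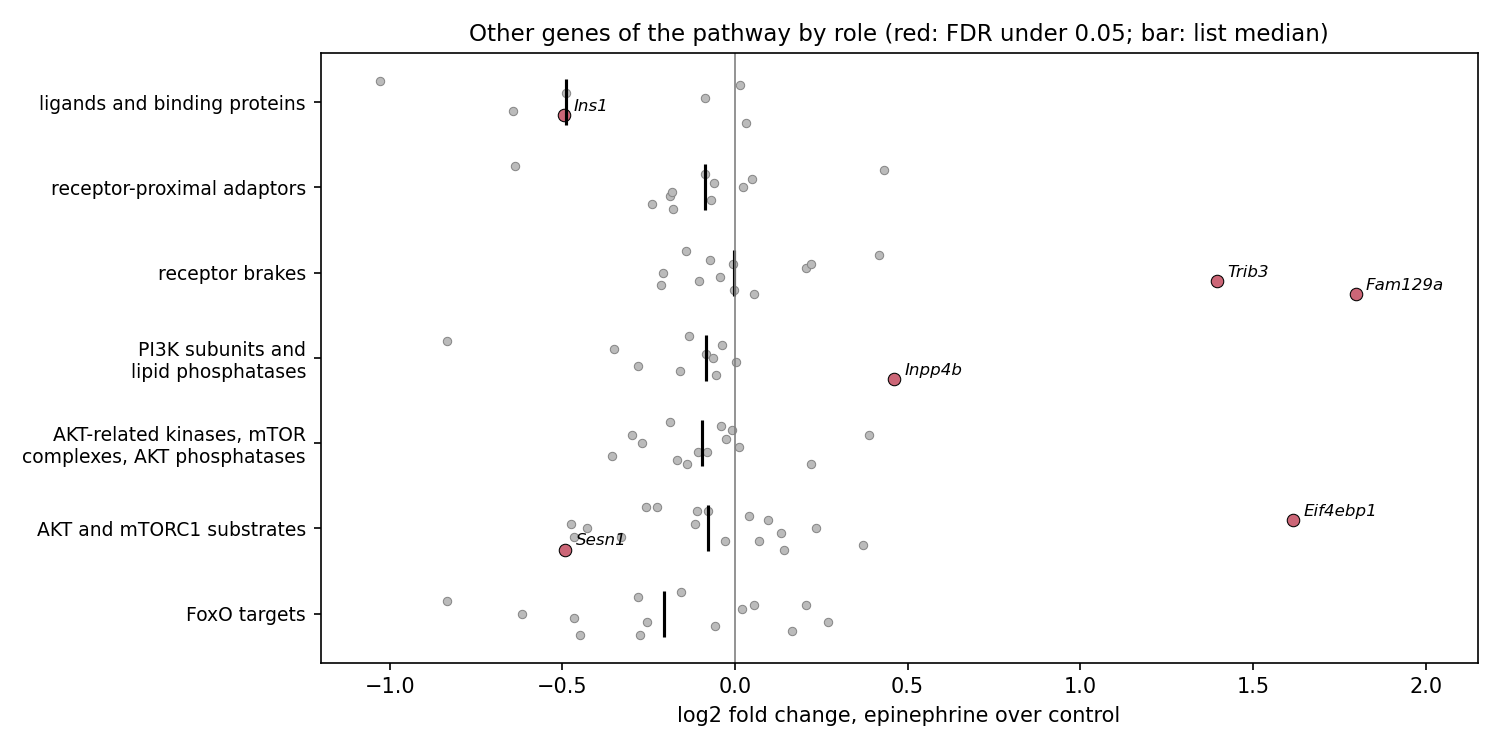
Log2 fold change (epinephrine over control) of the 87 tested pathway genes outside the 10, in rows by role, with red points for an FDR under 0.05 by edgeR and a black bar at the median of each list. A gene in 2 lists is drawn in both. Fam129a, Trib3 and Eif4ebp1 lay between 1.40 and 1.80, and the other genes between -1.03 and 0.46.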

How the data were processed

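RNA of 6 MIN6 samples was sequenced on an Illumina instrument. The authors deposited 1 table of expected counts per gene, not normalized between samples, and of FPKM values, which they scaled to transcript length and sample total. The genome build in the submitters' processing notes is GRCm38, and the aligner and counting tool are not given in the sources used here. Of the expected counts 8.34% were not whole, and all were rounded. Genes kept by filterByExpr were normalized by TMM and tested in edgeR 4.0.16 under R 4.3.3 (quasi-likelihood), epinephrine against control, with Benjamini-Hochberg adjustment over 12747 genes. Positions and transcripts came from GENCODE M21 on GRCm38, which held 22255 of the 22298 identifiers, and promoters from RefSeq.

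The 10 genes and the pathway lists were chosen with earlier results of these data known. Named were the 10 genes, pathway genes past the FDR threshold, genes of smallest p up to 8 and at least 1 per list, and the 5 genes most like the member of smallest p. The values of 1 gene named by this rule are not reported here. The alternatives were 3 other scalings, DESeq2 1.42.0, no filter, at least 10 counts in every sample, limma 3.58.1 on log2(FPKM + 1) or log2(FPKM + 0.1), a replicate block, and each sample left out. Replicate numbers were not treated as pairs.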

Additional observations from a re-analysis of the deposited data

How the results depend on the processing

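Results for the 10 genes and the named pathway genes were recomputed under 16 alternatives, where applicable. Of these alternatives only the length and GC offset was added after seeing the data. Leaving out each sample was planned, but the fit without control 1 was singled out after that sample was seen to stand apart. Of the 10 genes, DESeq2 called 1, the offset 4, and leaving out 1 sample 0 to 6. Leaving out 1 sample gave 3 to 9 upregulated and 0 to 18 downregulated pathway genes, the highest without control 1. The downregulated ones numbered 8 by DESeq2, 1 by limma with either pseudocount, 13 with the offset and 0 with the replicate block. The replicate block called none of the 10 genes (Igf1r 0.72, Foxo1 -0.55), and over all genes it called 178 against 335. Deviations of same-numbered samples correlated at 0.0502, 0.0677 and -0.0488, so the numbers were not taken as pairs. Without control 1 edgeR called 2798 genes, without another sample 47 to 192, by DESeq2 729 and with the offset 1329.

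With 1 sample left out the log2 fold change ran from 0.49 to 1.03 for Igf1r, 0.31 to 0.60 for Irs2, -0.41 to -0.25 for Igf2, -0.24 to -0.17 for Akt2 and -0.71 to -0.31 for Foxo1. Insr (-0.37 to 0.029) and Igf2r (-0.44 to 0.33) reversed without control 1. With the offset Igf1r was 0.79, Irs2 0.52, Igf2 -0.28 and Foxo1 -0.49, and by DESeq2 Igf2 was -0.36. The cause was not tested. Scalings moved the median of all genes by under 0.1. Igf1, Igfbp1 and Irs4 had too few counts at this depth to be tested.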

Other observations

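The pathway terms of the deposited annotation hold further genes of this chain, and the genes called in them were named after their values were seen. Of 126 tested genes in the term Insulin signaling pathway, edgeR called 4 upregulated (Eif4ebp1, Fbp1, Ppargc1a and Prkar1a) and 1 downregulated (Ins1). Fbp1, which encodes a gluconeogenic phosphatase, was at 2.59, 3.66 and 4.13 CPM in controls and 11.6, 10.3 and 8.59 CPM after epinephrine (log2 fold change 1.55 ± 0.196, FDR 0.00647). Ppargc1a, a coactivator of mitochondrial genes, was at 3.75, 4.11 and 3.69 CPM in controls and 7.24, 8.12 and 7.60 CPM after epinephrine (log2 fold change 0.99 ± 0.136, FDR 0.00907). Prkar1a, a regulatory subunit of protein kinase A, was at 1093, 1159 and 1135 CPM in controls and 1653, 1590 and 1670 CPM after epinephrine (log2 fold change 0.54 ± 0.0788, FDR 0.0108). In these 3 genes the groups did not overlap, as in 27.3% of all genes. Since they were named for passing edgeR's threshold, this adds no support. Of 93 genes in the term Insulin resistance, 3 were upregulated (Trib3, Ppargc1a and Slc2a1) and 2 downregulated (Slc2a2 and Ins1). Slc2a2, the main glucose transporter of mouse beta cells, was at 623, 597 and 547 CPM in controls and 344, 361 and 339 CPM after epinephrine (log2 fold change -0.76 ± 0.0857, FDR 0.00434). Of 115 genes in the term FoxO signaling pathway, 1 was upregulated (Plk2) and 1 downregulated (Ins1). Of 129 genes in the term mTOR signaling pathway, 2 were upregulated (Eif4ebp1 and Wnt5a) and 1 downregulated (Ins1). The median log2 fold changes of the 4 terms were -0.06, -0.07, -0.06 and -0.02, in the order Insulin signaling, Insulin resistance, FoxO signaling and mTOR signaling, against -0.0023 over all genes tested. Over all genes tested 2.02% were upregulated and 0.612% downregulated. These terms share genes with each other and with the lists of the report.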
